A study of Mus musculus with 6 samples.

Results

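Genes of epithelial cell contacts and of the simple keratin skeleton were followed in microglia sorted from the hippocampus of progranulin knockout mice. The 6 genes listed were the claudins Cldn1 and Cldn2, the cadherins Cdh1 and Cdh3 and the keratins Krt8 and Krt18, matched by symbol among the 16179 genes of the deposited table. Of these, 5 were analysed, and Cdh1 is not analysed here. They were selected on their normalised reads in these same libraries, with the difference between the groups already known, so that difference is described for them and was not tested. All animals were 10-month-old males of the strain B6.129S4(FVB)-Grntm1.1Far/Mmja, which lacks progranulin, so both groups carry the same deletion, and wild-type mice were not analysed here. BODIPY, a dye for neutral lipid, separated live CD11b+CD45lo cells into a lipid droplet-low fraction (BODIPY-low) and a lipid droplet-rich fraction (BODIPY-high), with 3 libraries each. Each library holds about 10000 cells from the pooled hippocampi of 2 mice. Where 3 values of a group are given below, they stand in the order of replicates 1, 2 and 3.

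Claudins span the membrane of adjoining epithelial or endothelial cells and seal, or make selectively leaky, the tight junction between them. Claudin-1 is a sealing member, while claudin-2 forms channels for cations and water and is typical of leaky epithelia such as the choroid plexus, the tissue that secretes cerebrospinal fluid. Classical cadherins such as P-cadherin (Cdh3) join cells at adherens junctions through catenins, and keratins 8 and 18 assemble as obligate partners into the intermediate filaments of simple epithelia. Microglia are macrophages and form no epithelial sheet.

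Library totals of recovered reads ran from 24982215 to 34899425. Microglia markers were abundant in every library: the 9 markers examined held 5.69% to 6.30% of all reads for BODIPY-low against 5.09% to 5.38% for BODIPY-high. Csf1r, the receptor for colony stimulating factor, had 478118 ± 15312 and 423784 ± 16580 normalised reads (SD, n = 3 each). Whether libraries of the same number come from 1 pool of mice is not stated, and the p-values given reflect the spread of these 6 libraries and no more, which may be technical. Of 12821 genes with a mean of at least 10 normalised reads, limma called 9.79% higher and 3.52% lower in BODIPY-high libraries. Of the 9 microglia markers it called 0 higher and 1 lower (3 lower at an unadjusted p under 0.05). The 1 was Cx3cr1, named after its value was seen, with means of 245262 and 187539 (adjusted p = 0.0399). It failed when any 1 library other than BODIPY-high replicate 1 was left out (up to 0.158). In bulk libraries, fewer cells of a type and less RNA per cell cannot be told apart.

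The 5 genes passed this filter on low values, but Cdh3 only through its BODIPY-high values. In all 5, every BODIPY-high library lay above every BODIPY-low library, as in 18.0% of all tested genes, and the choice of the genes rests on this same contrast. Differences are given as the change in mean log2(normalised reads + 1), BODIPY-high minus BODIPY-low. They were 2.23 for Cldn1, 4.23 for Cldn2, 6.54 for Cdh3, 4.20 for Krt8 and 4.53 for Krt18, beside a median of -0.01 over all tested genes. A difference of at least 4 was found in 2.76% of the tested genes.

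**Figure D1:**
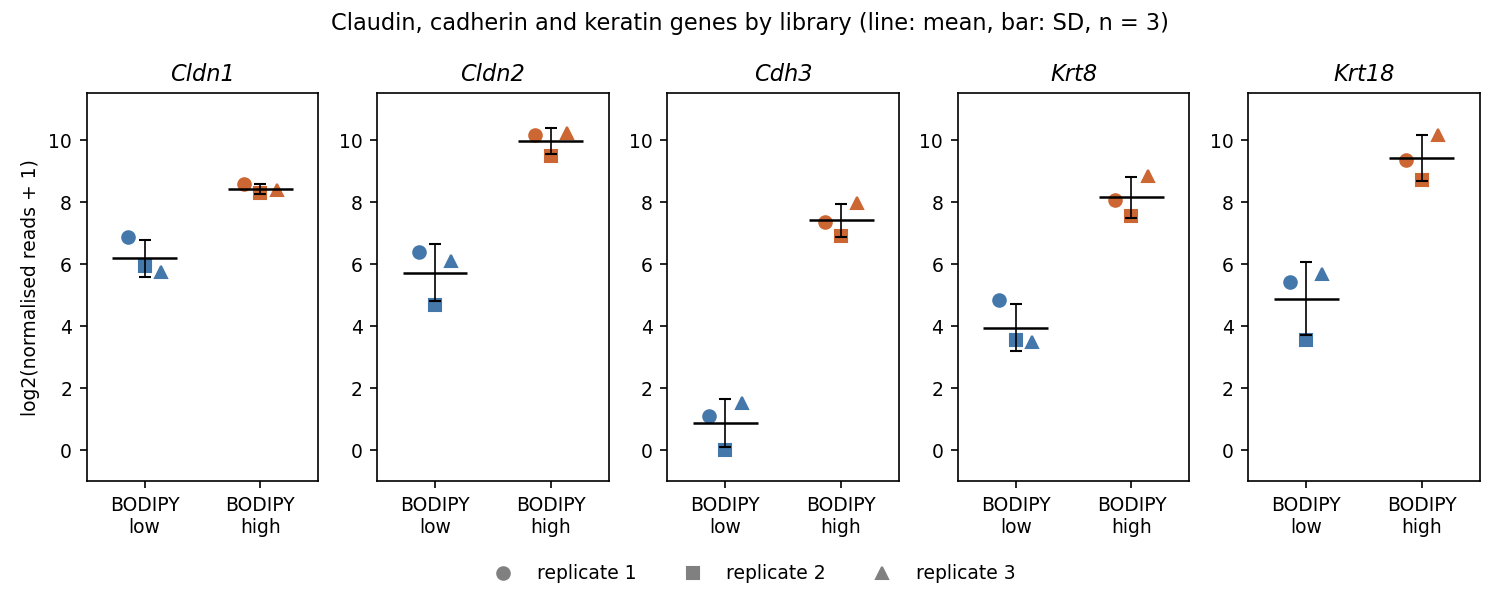
Normalised reads of Cldn1, Cldn2, Cdh3, Krt8 and Krt18 in each library, on a log2(value + 1) axis, by BODIPY group. Points are libraries, lines are means and bars are SD (n = 3). BODIPY-high points lie above BODIPY-low points in each panel, by least in Cldn1 (difference 2.23) and by most in Cdh3 (6.54).

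The claudins are described first, since they differed most from each other. Their promoters are shown because the start regions differ: in these 250 bases upstream of the RefSeq start (GRCm38.p6, 5′ to 3′ along the gene), Cldn2 holds a TATA box and no GC box, and Cldn1 holds 2 GC boxes and no TATA box. Capitals mark these matches. Cldn1 lies at chr16:26371840-26372089, minus strand, and Cldn2 at chrX:139800558-139800807, plus strand.
Cldn1: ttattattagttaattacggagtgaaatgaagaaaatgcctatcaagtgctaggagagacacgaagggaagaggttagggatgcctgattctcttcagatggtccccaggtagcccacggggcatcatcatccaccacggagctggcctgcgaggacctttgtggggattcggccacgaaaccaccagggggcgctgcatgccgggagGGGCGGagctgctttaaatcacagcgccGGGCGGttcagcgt
Cldn2: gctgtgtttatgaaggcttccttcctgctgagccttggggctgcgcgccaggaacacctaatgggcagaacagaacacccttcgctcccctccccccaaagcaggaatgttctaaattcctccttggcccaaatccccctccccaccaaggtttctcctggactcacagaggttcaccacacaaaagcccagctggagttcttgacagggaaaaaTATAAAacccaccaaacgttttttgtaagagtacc
The TATAAA match of Cldn2 lies 35 to 30 bases upstream of the start, and the GGGCGG matches of Cldn1 lie 42 to 37 and 14 to 9 bases upstream. Searched on both strands, TATAAA is found in 12.4% and GGGCGG in 32.7% of all 32851 promoters of the same length. Variant forms were not searched, such as the tttaaa between the 2 matches of Cldn1. A match is a description of the letters only.

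Cldn2 lies on chromosome X of GRCm38, from 139800828 to 139811386. It had 83.5, 24.5 and 66.8 normalised reads across the BODIPY-low libraries. Across the BODIPY-high libraries it had 1156, 708 and 1187. The lowest BODIPY-high library thus lay far above the highest BODIPY-low one, and replicate 2 was the lowest of each group. Means were 58.3 ± 30.4 and 1017 ± 268 (SD, n = 3 each), a ratio of 17.5.

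Cldn1, on chromosome 16 from 26356642 to 26371841, had the smallest difference of the 5 genes. It had 115, 60.7 and 52.9 normalised reads for BODIPY-low, against 384, 309 and 332 for BODIPY-high. The groups did not overlap, and the BODIPY-high libraries were close together, with a coefficient of variation of 11.3% against 44.7% in BODIPY-low. Read counting alone would give 5.22% and 11.8%. Means were 76.4 ± 34.1 and 342 ± 38.5 (SD, n = 3 each), a ratio of 4.48.

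Per kilobase of exon, Cldn1 and Cldn2 had similar mean levels in BODIPY-low libraries, 15.8 and 17.5 normalised reads, but 70.6 and 306 in BODIPY-high libraries. The ratio of Cldn2 to Cldn1 per kilobase was 1.05, 0.587 and 1.84 across the BODIPY-low libraries. It was 4.38, 3.33 and 5.20 across the BODIPY-high libraries, so the groups did not overlap in the ratio either.

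As a share of the summed level of all 14 claudins of the table per kilobase, the share of Cldn2 was 9.35% ± 4.72 for BODIPY-low against 49.0% ± 5.38 for BODIPY-high (SD, n = 3 each). Cldn1 made up 8.27% ± 3.01 and 11.6% ± 1.44. The claudins that led in BODIPY-low libraries were Cldn12, at 31.7% ± 1.08, and Cldn5, the claudin of the blood-brain barrier, at 30.4% ± 7.90. Their shares were 12.4% ± 1.40 and 10.3% ± 4.56 in BODIPY-high libraries, although the normalised reads of Cldn5 (80.7 ± 22.3 and 85.9 ± 20.97, SD, n = 3 each) and of Cldn12 (251 ± 26.8 and 324 ± 64.8) did not pass the limma test (adjusted p = 0.888 and 0.304).

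**Figure D2:**
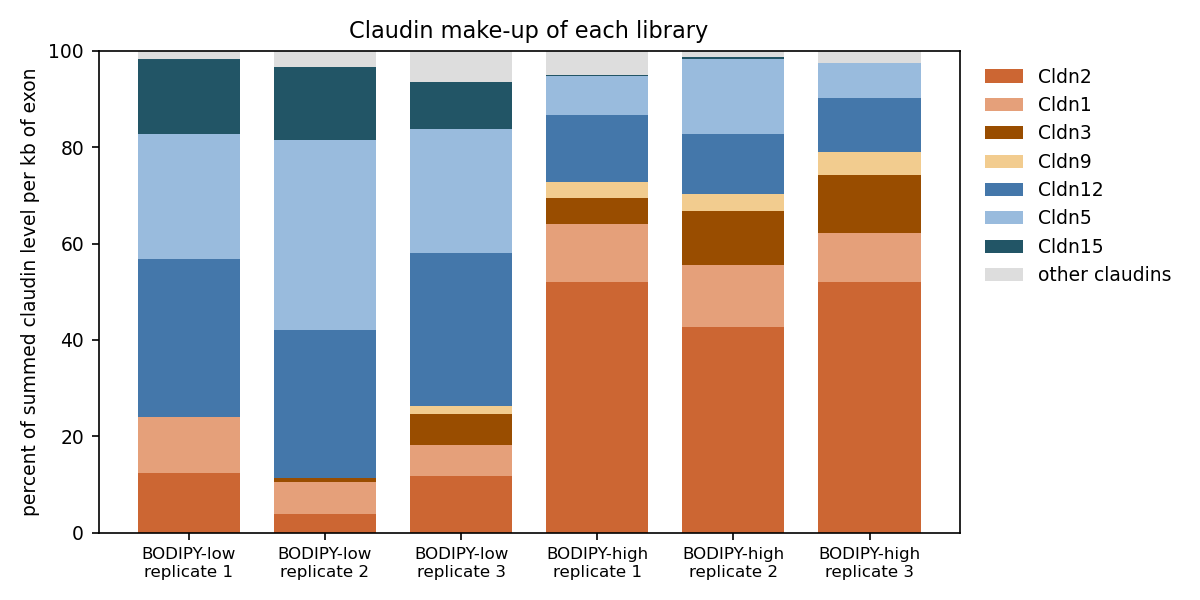
Share of each claudin in the summed claudin level per kilobase of exon, in percent, with 1 bar per library. Cldn2 fills 42.8% to 52.1% of the BODIPY-high bars and 3.91% to 12.4% of the BODIPY-low bars, and Cldn15 is seen almost only in BODIPY-low bars.

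Cdh3, or P-cadherin (chromosome 8, 106510891 to 106557297), had the largest difference of the 5 genes. It had 1, 0 and 2 reads across the BODIPY-low libraries, where the 0 allows up to 3.20 normalised reads. The BODIPY-high libraries had 161, 120 and 252 normalised reads. The gene was thus close to undetected in all 3 BODIPY-low libraries and clearly counted in all 3 BODIPY-high ones. With reads pooled, 3 for BODIPY-low and 594 for BODIPY-high, the ratio was 179 (exact 95% interval 60.9 to 869, which covers counting error only).

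The keratins are neighbours, with 23697 bases between Krt8 and Krt18, and lie on opposite strands. The 250 bases upstream of their RefSeq starts are shown because each holds 1 E-box of the form CACCTG, in capitals. Repressors of the Snail and Zeb families are known to bind this sequence. Krt8 is at chr15:102004343-102004592, minus strand, and Krt18 at chr15:102027966-102028215, plus strand (RefSeq, GRCm38.p6).
Krt8: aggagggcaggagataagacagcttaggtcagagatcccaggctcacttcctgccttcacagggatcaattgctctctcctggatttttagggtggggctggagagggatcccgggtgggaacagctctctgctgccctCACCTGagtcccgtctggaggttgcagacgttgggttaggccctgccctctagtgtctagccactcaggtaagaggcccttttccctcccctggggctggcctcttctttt
Krt18: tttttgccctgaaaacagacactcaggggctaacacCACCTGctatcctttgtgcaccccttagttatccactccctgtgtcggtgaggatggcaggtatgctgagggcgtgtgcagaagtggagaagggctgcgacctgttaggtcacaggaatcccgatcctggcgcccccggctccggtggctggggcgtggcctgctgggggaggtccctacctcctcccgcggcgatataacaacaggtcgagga
The match lies 111 to 106 bases upstream of the RefSeq start in Krt8 and 214 to 209 bases upstream in Krt18. The 2 sources of coordinates differ in the start of Krt8: its gene span given below reaches 102004482, which is inside this window. The Krt8 match thus lies within that gene span and not upstream of it. The end of the Krt18 window also overlaps its gene span, from 102028180, but the Krt18 match lies upstream of both starts. CACCTG, searched on both strands, is found in 17.2% of all promoters of this length. None of the 4 promoters shown holds TAATCC, a site of the OTX and PITX homeobox family (6.25% of all), or AACNGGTT, a Grainyhead-like site (1.79%). The matches say nothing of binding.

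Krt8, a type II keratin, lies on chromosome 15 from 101996698 to 102004482. It had 27.4, 10.7 and 10.2 normalised reads across the BODIPY-low libraries. The BODIPY-high libraries had 269, 185 and 458. The groups did not overlap, and the BODIPY-low values rest on 24, 10 and 11 reads. Means were 16.1 ± 9.82 and 304 ± 140 (SD, n = 3 each), a ratio of 18.9. Exons of Krt8 overlap the noncoding gene Gm36026 on the other strand and the genome holds a processed copy, Krt8-ps, so reads from those stretches cannot be assigned with certainty.

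Krt18, the type I partner of keratin 8, lies on the same chromosome from 102028180 to 102032027. It had 42.3, 10.7 and 50.1 normalised reads across the BODIPY-low libraries. The BODIPY-high libraries had 654, 419 and 1157. Replicate 3 was again the highest and replicate 2 the lowest of the BODIPY-high libraries, and no BODIPY-low library came near them. Means were 34.4 ± 20.9 and 743 ± 377 (SD, n = 3 each), a ratio of 21.6.

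Per kilobase of exon, Krt18 exceeded Krt8 in every library. The ratio of Krt18 to Krt8 per kilobase was 3.31, 3.09 and 3.44 across the BODIPY-high libraries. Across the BODIPY-low libraries it was 2.10, 1.36 and 6.69, so the groups overlapped and the low counts left a wide spread. The proportion of the keratins thus varied little across the BODIPY-high libraries.

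Among the libraries of a group the 5 genes varied together in part. All 5 were lowest in BODIPY-high replicate 2, and all but Cldn1 were highest in replicate 3. After each group's mean was removed, the correlation over the 6 libraries was 0.99 between Cdh3 and Krt18, 0.93 between Cldn2 and Krt18 and 0.59 between Krt8 and Krt18. For Cldn1 it was 0.76 with Krt8, 0.52 with Cldn2, 0.24 with Krt18 and 0.10 with Cdh3. These values rest on 6 libraries that share their size factors, and the BODIPY-low values of Cdh3 rest on 3 reads.

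Markers of choroid plexus epithelium moved with these genes. Of 15 markers tested, 15 were called higher in BODIPY-high libraries, with differences between 3.82 and 4.96 and a median of 4.64, and none was at 0 in any library. Their summed level was 19332, 3958 and 7588 normalised reads for BODIPY-low, against 261338, 156873 and 275045 for BODIPY-high. BODIPY-high replicate 2 was therefore the lowest of its group for the markers as for all 5 genes, and BODIPY-low replicate 2 the lowest for the markers as for Cldn2, Cdh3 and Krt18. Enpp2, which encodes autotaxin, had 5489.8 ± 4351 and 132138 ± 46263 normalised reads, and Ttr, which encodes transthyretin, had 3428 ± 2876 and 71489 ± 14632 (SD, n = 3 each). The part of choroid plexus RNA in the differences of the 5 genes was not tested.

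Set against the summed choroid plexus markers, the genes separated into 3 patterns. Enpp2 and Ttr made up most of that sum in every library, so this scale is mainly a ratio to these markers. In replicate 1 they had 10437 and 6635 of 19332 normalised reads for BODIPY-low. For BODIPY-high they had 165177 and 68025 of 261338. Cldn2 had 4.42, 4.51 and 4.32 reads per 1000 marker reads for BODIPY-high, against 4.32, 6.19 and 8.81 for BODIPY-low. Krt8 (1.03 to 1.67 and 1.35 to 2.69) and Krt18 (2.50 to 4.21 and 2.19 to 6.60) likewise overlapped between BODIPY-high and BODIPY-low libraries. For Cldn2, BODIPY-low replicates 2 and 3 lay above every BODIPY-high library and replicate 1 lay within their range. The BODIPY-low mean was 1.46 times the BODIPY-high mean for Cldn2, 1.41 times for Krt8 and 1.22 times for Krt18, where it was 0.780 times without BODIPY-low replicate 3.

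Cldn1 had more reads relative to the markers in BODIPY-low libraries, 5.97, 15.3 and 6.97 per 1000 against 1.47, 1.97 and 1.21 for BODIPY-high. Cdh3 went the other way, with 0.0591, 0 and 0.245 per 1000 for BODIPY-low against 0.616, 0.765 and 0.916 for BODIPY-high, where the BODIPY-low values again rest on 3 reads. Neither gene's groups overlapped on this scale. Of 7 further genes read on this scale, chosen after their values were seen, 5 were higher in every BODIPY-low library than in any BODIPY-high library, as Cldn1 was. Their BODIPY-low means were 12.8 (Ocln), 6.77 (Tjp3), 6.34 (Perp), 5.11 (Ezr) and 1.85 (Spint2) times the BODIPY-high means, and that of Ocln was 7.19 times without BODIPY-low replicate 2. Cldn3 overlapped between the groups. Krt23 had no read in BODIPY-low libraries and 0.155, 0.0433 and 0.321 per 1000 in BODIPY-high libraries. At such rates few reads would be counted beside the low marker totals of the BODIPY-low libraries, so depth limits this comparison.

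**Figure D3:**
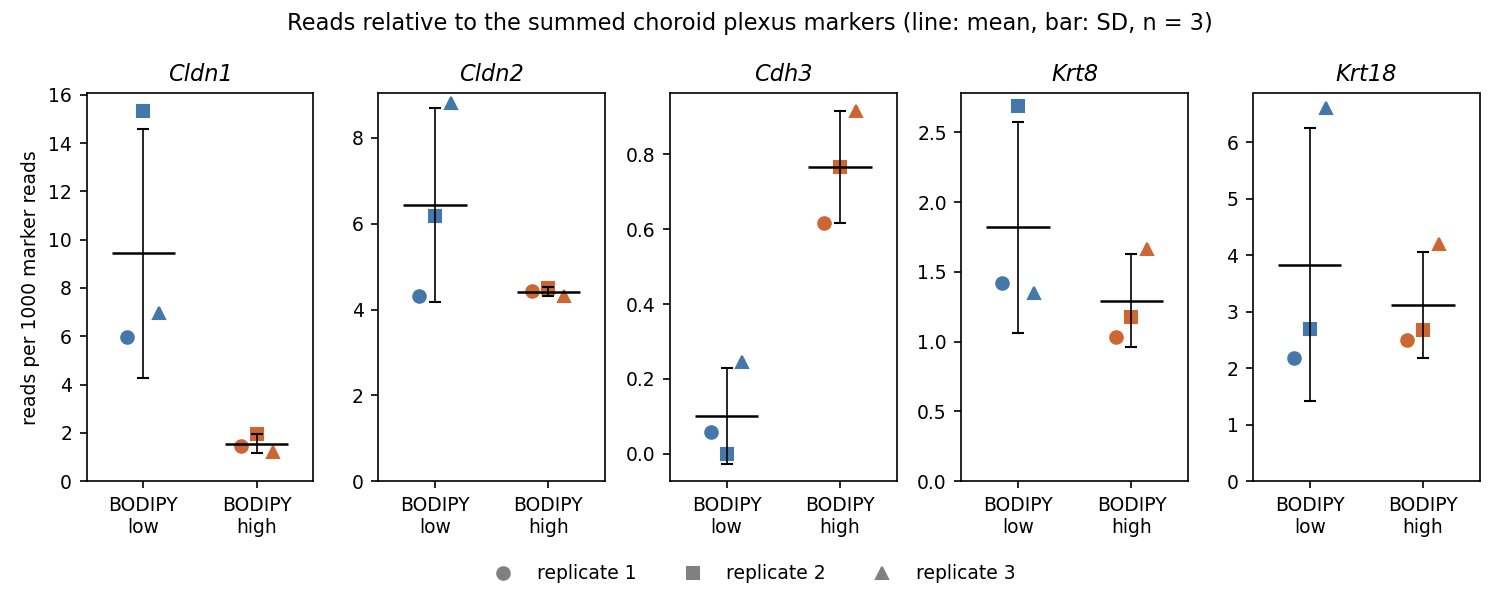
Reads of each gene per 1000 reads of the 15 summed choroid plexus markers, by library and BODIPY group, with linear axes of their own. Points are libraries, lines are means and bars are SD (n = 3). The groups overlap for Cldn2, Krt8 and Krt18, Cldn1 is higher in BODIPY-low libraries and Cdh3 higher in BODIPY-high libraries.

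Other junction, keratin and epithelial genes were tested singly and their calls counted by list, and no list was tested as a set. Over 54 tested genes of 4 lists (tight junction, cadherins with catenins, keratins with desmosomes, and epithelial identity), limma called 14 higher (25.9%, against 9.79% of all tested genes) and 3 lower, and 37 did not pass. Of the genes called higher, Cldn3, Cldn9, Pard3, Crb3, Marveld3, Cdh2 and Krt23 passed the filter on low values only through their BODIPY-high values. The 25.9% thus depends in part on that filter, and its distance from 9.79% was not tested. The median difference of the 54 was 0.11, against -0.01 over all tested genes. Without BODIPY-high replicate 3 the higher calls numbered 7.

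Of 27 other tight junction genes, 8 rose, 2 fell and 17 did not pass, with a median difference of 0.14. Cldn3 and Cldn9, further claudins, rose from 5.35 ± 7.50 to 73.8 ± 29.5 and from 1.24 ± 2.14 to 34.9 ± 11.6 normalised reads (SD, n = 3 each), with log2 differences of 4.30 (SE 0.90, limma adjusted p = 0.01004) and 4.37 (SE 0.90, adjusted p = 0.00907). Pard3 and Crb3, which set up apical polarity, rose by 3.92 and 3.84 (adjusted p = 0.00919 and 0.0168). Marveld3, Cgnl1, Tjp3 and Ocln (occludin), named here after their values were seen, rose by 3.67, 2.95, 1.98 and 1.35. Without BODIPY-high replicate 3, Cldn3, Cldn9, Crb3, Pard3 and Marveld3 no longer passed (limma adjusted p = 0.0619, 0.0711, 0.0698, 0.05003 and 0.0711), and Marveld3 also failed without BODIPY-high replicate 1 (0.0558).

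Cldn15, which like claudin-2 forms cation channels, fell in BODIPY-high libraries. It had 67.5, 60.7 and 35.3 normalised reads for BODIPY-low, against 0.942, 3.40 and 0 for BODIPY-high. It was thus the tight junction gene furthest from Cldn1 and Cldn2 in direction, with a log2 difference of -4.71 (SE 0.78, limma adjusted p = 0.00279). Cldn15 passed the filter on low values only through its BODIPY-low values. In the same libraries neutrophil markers fell, 7 of 8 by the limma test, with summed levels of 29699 to 79197 for BODIPY-low and 197 to 2292 for BODIPY-high, and their part in the Cldn15 result was not tested.

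The abundant scaffold and adhesion genes of tight junctions differed far less. Tjp1, the scaffold ZO-1, had 4296 ± 228 and 3511 ± 294 normalised reads, and Jam2 had 3720.3 ± 272 and 3235 ± 261 (SD, n = 3 each), and neither passed (limma adjusted p = 0.0673 and 0.217). Tjp1 passed without BODIPY-high replicate 1 (0.0403) and with DESeq2 (0.0419). F11r, or JAM-A, the second fall of the list and named after its value was seen, fell by 0.37 on the log2 scale (adjusted p = 0.0488) and failed without any 1 of the 6 libraries (up to 0.179) and with edgeR.

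Of 13 other cadherin and catenin genes 2 rose, 1 fell and 10 did not pass, with a median difference of -0.03. Cdh2, or N-cadherin, resembled Cdh3 in its near absence from BODIPY-low libraries: 1 read for BODIPY-low and 117 for BODIPY-high gave a pooled ratio of 106 (exact 95% interval 18.6 to 4206, limma adjusted p = 0.00349). The catenin partners shared by all classical cadherins were abundant in both groups. Ctnnb1 (beta-catenin) had 10101 ± 706 and 9879 ± 224 normalised reads and Ctnnd1 (p120) 3773 ± 509 and 3833 ± 394 (SD, n = 3 each), with limma adjusted p of 0.858 and 0.916. Ctnna1 (alpha-catenin) rose by 0.59 (adjusted p = 0.0225) but failed when replicate 2 or 3 of BODIPY-low, or replicate 1 or 3 of BODIPY-high, was left out (up to 0.102). Vcl, the actin linker vinculin, fell by 0.67 on the log2 scale (adjusted p = 0.0190) and failed when replicate 1 or 2 of BODIPY-low, or replicate 2 of BODIPY-high, was left out (up to 0.0609). A further 12 numbered cadherins of the table lay below the filter on low values.

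Of 7 other keratin and desmosome genes 2 rose and 5 did not pass, with a median difference of 1.27. Krt23, a type I keratin, had no read in BODIPY-low libraries and 40.5, 6.80 and 88.2 normalised reads across the BODIPY-high libraries, at least 48.1-fold higher against a floor of 3 reads over the BODIPY-low group (limma adjusted p = 0.0122, and 0.0522 without BODIPY-high replicate 1), and without BODIPY-high replicate 3 it lay below the filter on low values. Perp, a desmosome protein, rose from 126 ± 29.6 to 592 ± 131 (SD, n = 3 each, log2 difference 2.23, SE 0.24, adjusted p = 1.91e-04), a difference like that of Cldn1. The linkers Plec (plectin, adjusted p = 0.307) and Pkp4 (plakophilin-4, 0.127) did not pass. Dsp, the desmoplakin that anchors keratin to desmosomes, was below the filter, with 0 reads in BODIPY-low libraries and 34 in BODIPY-high libraries, none of them in replicate 3.

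Of 7 tested epithelial identity genes 2 rose and 5 did not pass, with a median difference of 1.36. Spint2, an inhibitor of membrane serine proteases, rose from 92.5 ± 66.9 to 1157 ± 243 and Ezr, which encodes ezrin of microvilli, from 429.7 ± 91.5 to 2639 ± 1115 normalised reads (SD, n = 3 each), with log2 differences of 3.84 and 2.55 (limma adjusted p = 1.39e-04 and 1.71e-04). Spint1 and St14, a protease inhibitor and its target, had 7023 ± 1165 and 2042 ± 335 normalised reads in BODIPY-low libraries and did not pass (adjusted p = 0.228 and 0.827), although Spint1 passed as a fall without BODIPY-high replicate 1 (0.0404). Epcam, the epithelial adhesion molecule, was below the filter, with 0 reads in BODIPY-low libraries and 6.59, 3.40 and 8.74 normalised reads across the BODIPY-high libraries.

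**Figure D4:**
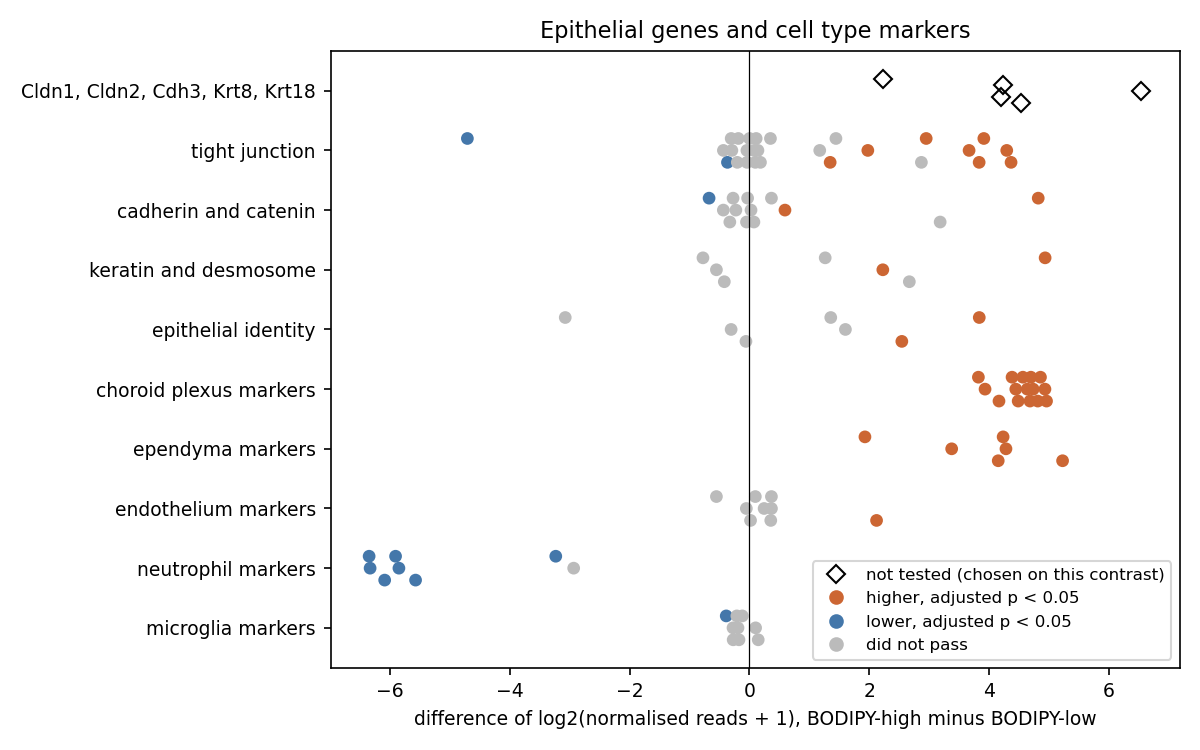
Difference of mean log2(normalised reads + 1), BODIPY-high minus BODIPY-low, for each tested gene of the epithelial lists and of 5 marker lists. Open diamonds are Cldn1, Cldn2, Cdh3, Krt8 and Krt18, which were not tested. Filled points are coloured by the limma call. Choroid plexus markers gather around 4.64, while tight junction genes spread from -4.71 to 4.37.

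Transcription factors known to repress epithelial cadherin genes did not pass the test. Of 4 tested, limma called 0 (1 at an unadjusted p under 0.05) and edgeR 0, while DESeq2 called 1, Zeb2, lower. Zeb2, abundant in microglia, had 5016 ± 546 and 3672 ± 922 normalised reads (SD, n = 3 each, log2 difference -0.47, limma adjusted p = 0.0675), and passed without BODIPY-high replicate 1 (0.00414). Tcf4 had 3738 ± 255 and 3835 ± 84.3 (adjusted p = 0.824). Of 7 other intermediate filament genes 2 rose and 1 fell, with a median of -0.12: Lmna rose by 1.13, Synm rose by 2.75 and Nes fell by 1.78. Each of these calls failed without BODIPY-low replicate 2 and in at least 2 other leave-outs (limma adjusted p up to 0.101, 0.0969 and 0.201). Synm passed the filter on low values only through its BODIPY-high values.

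Markers of other cells that could carry junction or keratin transcripts were also read. Ependyma markers rose in 6 of 6 tested, with a median of 4.20, and their summed level was 47.9 to 97.2 for BODIPY-low and 650.1 to 1054 for BODIPY-high. Of the 6, Dynlrb2 and Foxj1 passed the filter on low values only through their BODIPY-high values. The count thus depends in part on that filter. Tekt1 and Rsph1, genes of motile cilia, rose by 4.24 and 4.29. Of the meningeal fibroblast list 2 of 2 tested rose, Pdgfra by 4.01 and Col1a2 by 4.90, and both failed without BODIPY-high replicate 3 (limma adjusted p = 0.0740 and 0.0866). Col1a2 likewise passed the filter only through its BODIPY-high values. The summed level of that list was 12.1 to 28.6 for BODIPY-low and 145 to 318 for BODIPY-high. Dcn, a defining fibroblast gene below the filter, had 0, 7.46 and 0 normalised reads for BODIPY-low, against 0, 27.2 and 0.795 for BODIPY-high. Also below the filter were Slc6a13 (8 reads for BODIPY-low and 42 for BODIPY-high) and Col3a1 (0 and 3). The groups overlapped in each of these genes below the filter. The part of these cells in the differences of the 5 genes was not tested.

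Endothelial markers, which include Cldn5 and Cdh5 of the lists above, did not pass in 8 of 9, and Slco1a4, an organic anion transporter, rose by 2.12. Pecam1 had 441 ± 129 and 419.7 ± 84.1 normalised reads (SD, n = 3 each, limma adjusted p = 0.915). Of 5 oligodendrocyte markers limma called 0 (3 at an unadjusted p under 0.05), edgeR 1 and DESeq2 2, and Mbp and Cnp had adjusted p of 0.133 and 0.185. The summed endothelial level was 1347 to 1526 for BODIPY-low and 1819 to 1969 for BODIPY-high, and that of oligodendrocytes 4627 to 5203 and 5906 to 7231. Of 6 astrocyte markers 1 rose (Aldh1l1, by 1.07), and of 5 neuron markers 2 rose, Syt1 by 5.18 and Map2, named after its value was seen, by 3.31. Syt1, Map2, Rbfox3 and Slc17a7 passed the filter on low values only through their BODIPY-high values. The neuron count thus depends in part on that filter, and the Syt1 difference rests on 1 BODIPY-low read. Map2 failed without BODIPY-low replicate 2 or any 1 BODIPY-high library (limma adjusted p up to 0.112). Snap25, a synaptic protein gene, had 12.5 ± 7.31 and 29.8 ± 7.25 normalised reads (SD, n = 3 each) and did not pass (adjusted p = 0.199). Summed marker levels were 7030 to 8106 and 7789 to 9923 for astrocytes and 25.6 to 34.3 and 151 to 190 for neurons.

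The tested genes beside these loci did not follow them as a rule. The 3 nearest genes of the table on each side of each locus came to 24, of which 15 were tested. Among these limma called 2 higher and 0 lower, 13.3%, against 13.3% of all tested genes called in either direction. Of the 2, Gmnc passed the filter on low values only through its BODIPY-high values, so this share depends in part on that filter. At an unadjusted p under 0.05 limma called 4 higher and 0 lower, and edgeR and DESeq2 each called 2 higher and 0 lower. Of the genes below the filter, Krt1 (1 read for BODIPY-low and 43 for BODIPY-high) and Nup62cl (3 and 43) had higher BODIPY-high values without overlap. The others below the filter overlapped between the groups. Tns2, a tensin of focal adhesions 68386 bases from Krt18, rose from 12.6 ± 7.70 to 79.9 ± 56.3 (SD, n = 3 each, adjusted p = 0.0283). Gmnc, a regulator of multiciliated cells 541712 bases from Cldn1, had no read in BODIPY-low libraries and was at least 20.5-fold higher against a floor of 3 reads over that group (adjusted p = 0.0355). Tns2 failed when replicate 1 or 2 of BODIPY-low, or replicate 1 or 3 of BODIPY-high, was left out (up to 0.139) and Gmnc without any 1 BODIPY-low library (up to 0.0849), and without BODIPY-high replicate 2 or 3 Gmnc lay below the filter on low values. Eif4b, between Tns2 and the keratins, had a difference of 0.03.

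The tested genes whose profile over the 6 libraries was most like the mean profile of the 5 genes were Clu, Slc4a5, Col9a3, Aplp1, Car12, Gpx8, Car2 and Kl, each with a Pearson correlation of at least 0.998 on the log2 scale. Slc4a5, Car12 and Kl are among the choroid plexus markers above. Taken singly, Cldn2 was nearest to Slc2a12 and Kcnj13, a potassium channel of the choroid plexus marker list, and Cdh3 to Hs3st1 and Tmem72. Krt8 was nearest to Sugct and Mdh1, Krt18 to Stk32a and Sod2, and Cldn1 to BC029214 and Dtx1, each again at 0.998 or above. The correlations share 6 libraries and the difference between the groups, and a high value was reached by genes of very different size of change: BC029214 differed by 0.44 and Stk32a by 5.11.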

How the data were processed

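Per the series' design text and the submitters' processing notes, reads were mapped with STAR 2.5.3a to mm10, counted per gene by STAR, and compared with DESeq2. mm9 stands beside mm10 in the notes. Which annotation and strand column were used is not given in the sources used here. Values deposited by the authors are a signal, namely read counts over a size factor of the library. Whole reads were recovered for 100% of values (tolerance 0.01 read). Of all symbols, 15532 (96.0%) matched GENCODE M21 (GRCm38), which gave coordinates and exon lengths. Promoters are from RefSeq, with 4 of 5 genes matched.

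The test was limma 3.58.1 in R 4.3.3 (two-sided, trended variance, no block) on log2(value + 1) for genes with a mean of at least 10, with Benjamini-Hochberg adjustment over all of them and a threshold of 0.05. It was tested on simulated data. Alternatives were other pseudocounts and filters, TMM scaling, edgeR 4.0.16 and DESeq2 1.42.0 on recovered reads, a replicate block, and leaving out each library. The genes and lists were chosen with earlier results of these data known. Named beside the 5 genes are, per junction, epithelial and repressor list, up to 5 called genes of largest change and the 2 most abundant uncalled ones, the 2 most abundant genes per marker list, called neighbours, and the genes of most similar profile.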

Additional observations from a re-analysis of the deposited data

How the results depend on the processing

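The differences of Cldn1, Cldn2, Krt8 and Krt18 stayed within 1 SD of the value given under all 14 alternatives. That of Cdh3 was 4.88 with a pseudocount of 5, 7.26 with edgeR and 7.43 with DESeq2, and lay between 6.11 and 6.86 with 1 library left out. It rests on 3 reads in BODIPY-low libraries, so depth limits its size. No direction reversed. Among all tested genes, the higher calls ranged from 662 to 1309 and the lower calls from 151 to 527 with 1 library left out, against 1255 and 451. Of the epithelial lists, the higher calls (14) ranged from 7 to 15 and the lower calls (3) from 1 to 4 with 1 library left out. With a filter of mean at least 50, 7 were higher and 1 lower, and DESeq2 gave 5 lower. The 2 neighbour calls ranged from 0 to 1 with 1 library left out and came to 0 with the filter of 50. The cause of these changes was not tested, except that the stricter filter tests fewer genes.

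The numbers in the library names were not taken as pairs, since a shared pool of mice is not stated. Same-numbered libraries correlated in their deviations from the group means at 0.110, 0.144 and 0.073. Differently numbered libraries correlated at -0.115 to 0.002, below each same-numbered value. Whether the numbers mark shared pools was not tested. In a fit with a replicate block, the lower calls came to 760 over all genes and to 5 in the epithelial lists, and Csf1r, Spint1 and Zeb2 passed as falls (limma adjusted p = 0.0430, 0.01835 and 0.00472) and Mbp as a rise (0.0452). Of 55 other genes refitted, 32 kept their call under all alternatives in which they passed the filter.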
